A study of Melospiza melodia with 33 samples.

Results

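The 8 genes described here encode the subunits of TRiC, also called CCT, the chaperonin of the cytosol: TCP1, CCT2, CCT3, CCT4, CCT5, CCT6A, CCT7 and CCT8. They were chosen by name as the subunits of this complex, not by any measured value, though earlier results of these data were known. All 8 had a row among the 21141 gene rows counted in every library. All 8 passed the filter on low counts in every comparison. The libraries were 33 whole-blood RNA-seq libraries from 25 wild song sparrows (Melospiza melodia), all adult males living free around Linesville, Pennsylvania. After a simulated territorial intrusion with foreign song, recorded at Millbrook, New York (stimuli 1, 4 and 5), 12 libraries were made, 8 of them from a first trial and 4 from a second. After an intrusion with local song, recorded at Linesville (stimuli 2, 3 and 6), 11 libraries were made, 7 from a first trial and 4 from a second. The other 10 libraries came from baseline birds, which had no trial. A total of 8 birds were sampled after both songs, 4 of them with local song second and 4 with foreign song second. Nothing in the labels gives the time from playback to blood sampling, and birds that were not recaptured have no second library.

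TRiC is a barrel of paired rings in which each ring holds 1 copy of each of the 8 different subunits. Unfolded proteins enter the cavity and are closed in by a lid that moves as the subunits hydrolyse ATP. Actin and tubulin are its best known substrates. Some proteins of a different fold, the beta-propeller, such as CDC20 and G protein beta subunits, also depend on it. Prefoldin hands newly made chains to the chaperonin, and phosducin-like proteins act as its cofactors. Because every ring needs every subunit, the relative amounts of the 8 transcripts can be set beside their absolute levels. Birds have nucleated red blood cells, so whole blood RNA in a sparrow comes largely from that lineage, with thrombocytes and white cells.

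The libraries held 64.7 to 103.7 M counts each, and 12766 to 15472 genes were detected. Genes of the erythroid list with a row, 11 of 16, summed to 9676 to 25647 CPM (counts per 1000000, scaled for library composition by TMM), so red cell transcripts were abundant in every library, and the rest of that list was not analysed here. The T cell list (7 of 11 genes with a row, none at 0 in all libraries) summed to 6.06 to 36.9 CPM after foreign song, 6.52 to 59.7 CPM after local song and 10.8 to 100.9 CPM in baseline birds. A pair of libraries stood apart. The library labelled local 8439 had a TMM factor of 2.06, against 0.699 to 1.41 in all others, the lowest erythroid sum, and a correlation of −0.066 with the other library of its bird in deviations from group means, against 0.362 to 0.648 in the other 7 birds. The library labelled baseline 8448 had the highest T cell sum (100.9 CPM), the highest monocyte sum (498.4 CPM) and the highest B cell sum (63.3 CPM) of the 33. Several results that rest on either are given with and without it. Baseline 8450 had a TMM factor of 1.41 and an erythroid sum of 10551 CPM, and CCT8 is also given without it. Values over 25 birds use the first-trial or baseline library of each bird, so baseline 8448 is in them and local 8439 is not. Shares of a subunit over the 33 libraries hold both. Shares, neighbours in the ring and correlations with the mean of the subunits are not given without baseline 8448. Only the genes most like the subunits are an exception. In whole blood, fewer cells of a type and less RNA per cell cannot be told apart.

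All 8 subunits were detected in every library, and in no case did the 3 groups separate. TCP1, the subunit that gave the family its name, had a lowest, median and highest level of 21.5, 34.6 and 75.7 CPM in the 12 foreign-song libraries. In the 11 local-song libraries the same values of TCP1 were 10.9, 33.4 and 67.8 CPM. In the 10 baseline libraries they were 26.01, 30.7 and 59.3 CPM. The highest and second highest TCP1 levels of the study both came from bird 8430, after foreign and after local song, and the lowest came from local 8439.

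CCT8, another subunit of the ring, was the member whose group levels lay furthest apart. It had a lowest, median and highest level of 2.16, 4.39 and 5.94 CPM after foreign song. After local song CCT8 had 2.20, 3.10 and 5.27 CPM. Baseline birds had 1.94, 4.80 and 10.7 CPM, so the baseline range enclosed both song ranges. The mean CCT8 level was 4.05 ± 1.12 CPM after foreign song (SD, n = 12), 3.43 ± 0.965 CPM after local song (SD, n = 11) and 5.37 ± 2.54 CPM in baseline birds (SD, n = 10).

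CCT4 and CCT7 had like means in the 3 groups and 1 high baseline bird. CCT4 averaged 5.50 ± 1.07 CPM after foreign song, 5.50 ± 1.60 CPM after local song and 5.42 ± 2.75 CPM in baseline birds (SD, n = 12, 11 and 10). CCT7 averaged 3.03 ± 0.770 CPM after foreign song, 3.03 ± 0.652 CPM after local song and 3.38 ± 1.93 CPM in baseline birds. Baseline 8448 had the highest level of the study for CCT4 (12.8 CPM), CCT7 (7.84 CPM) and CCT8 (10.7 CPM). Without it the baseline means were 4.60 ± 0.975 CPM for CCT4, 2.88 ± 1.20 CPM for CCT7 and 4.78 ± 1.80 CPM for CCT8 (SD, n = 9). The part of this bird's high white cell marker sums in those values was not tested.

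The remaining subunits differed between group means by less than 1 SD. CCT2 averaged 62.9 ± 14.0 CPM after foreign song, 60.0 ± 16.4 CPM after local song and 65.3 ± 12.2 CPM in baseline birds. CCT3 averaged 40.5 ± 8.80 CPM after foreign song, 39.5 ± 10.8 CPM after local song and 40.2 ± 11.4 CPM in baseline birds. CCT5 averaged 14.6 ± 4.93 CPM after foreign song, 15.4 ± 5.96 CPM after local song and 15.03 ± 3.19 CPM in baseline birds. For CCT6A the means were 15.3 ± 5.63 CPM after foreign song, 14.9 ± 5.14 CPM after local song and 14.8 ± 4.50 CPM in baseline birds. The levels of all 8 summed to 184.7 ± 42.7 CPM after foreign song, 177.4 ± 52.3 CPM after local song and 183.3 ± 28.6 CPM in baseline birds. Transcript lengths were not used here, so CPM is compared for 1 subunit across libraries and not between subunits.

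**Figure D1:**
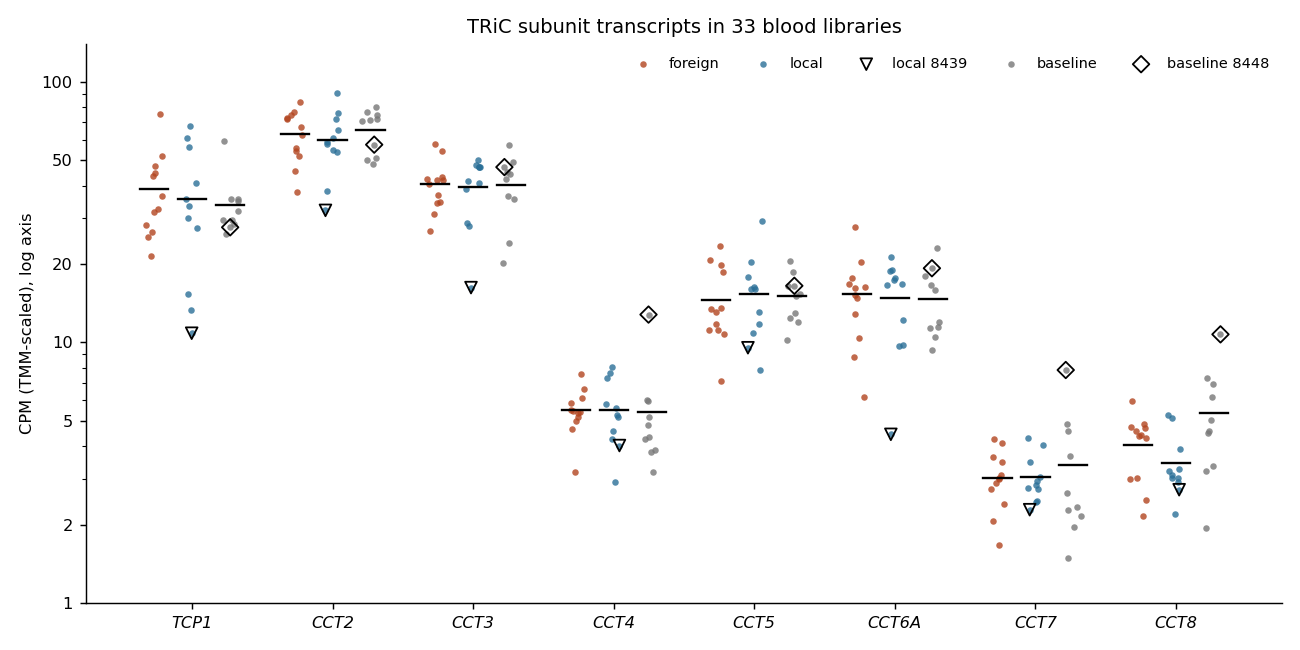
TMM-scaled CPM (log axis) of each TRiC subunit, with 1 point per library after foreign song (12), after local song (11) and in baseline birds (10), and black bars at group means. The 3 groups overlap for every subunit; the diamond marks baseline 8448, highest for CCT4, CCT7 and CCT8, and the triangle marks local 8439, lowest for TCP1, CCT2, CCT3 and CCT6A.

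The spread of the subunits over libraries differed from gene to gene. Over the 33 libraries the highest level of CCT2 was 2.81 times its lowest, the narrowest range of the 8. The widest range was that of TCP1, 6.98-fold, followed by CCT6A at 6.27-fold. TCP1, CCT2, CCT3 and CCT6A all had their lowest level in local 8439, and the ranges were not ranked without it. With 1 library a bird (the first trial, or baseline), the SD of log2 CPM over 25 birds was lowest for CCT2 at 0.312 and highest for CCT8 at 0.583, while counting error alone gave 0.020 to 0.095. The median SD over the 12296 genes that passed the filter was 0.617, and 8.40% of those genes varied less than CCT2, against 46.5% for CCT8. All 8 subunits thus lay below the median gene in spread. Those genes were not matched to the subunits on level, and the part of level in this ranking was not tested. Between the 2 libraries of the 8 birds sampled after both songs, the within-bird SD exceeded the SD of bird means for 6 of the 8 subunits, such as CCT3 (0.424 within and 0.316 between birds). TCP1 (0.575 and 0.669) and CCT8 (0.295 and 0.355) were the exceptions. Bird 8439 is in these values, and its libraries differed by −1.38 for CCT2 (log2, second minus first). In the other birds sampled after both songs the CCT2 difference ran from −0.33 to 0.03. The count of 6 was not made without 8439, so it may rest on that bird.

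The balance between subunits was described by the log2 ratio of each to the mean log2 CPM of the 8 in the same library, which does not depend on transcript length when libraries are compared. The subunits that kept the steadiest share were CCT6A and CCT3, with an SD of this ratio of 0.220 and 0.225 over 25 birds, against 0.397 and 0.366 for their own log2 CPM. CCT7 and CCT8 kept the least steady share, with SDs of 0.420 and 0.444. For CCT2 the ratio varied more than the gene itself (0.359 against 0.312), so the share of CCT2 was less steady than its level. The correlation of CCT2 with the mean of the other 7 was 0.166 over 25 birds, the lowest of the 8, and those of CCT6A and CCT3 were 0.775 and 0.717. These correlations describe birds that share a library preparation and a scaling, and the mean shares no counts with the gene set beside it.

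Among the 28 pairs of subunits, CCT3 and CCT6A kept the tightest ratio, with an SD of 0.272 on the log2 scale and a range of 2.18-fold over 25 birds. TCP1 and CCT5 followed with an SD of 0.317, and CCT4 and CCT7 with 0.335. The widest ratio was that of TCP1 to CCT7, with an SD of 0.748 and a range of 6.50-fold, lowest in baseline 8448 and highest in foreign 8439. CCT2 to CCT7 (0.687), CCT5 to CCT7 (0.666) and TCP1 to CCT8 (0.657) came next. CCT8 had no tight partner, with SDs of 0.537 to 0.657 against the other 7 (0.540 to 0.599 without baseline 8448). Without baseline 8448 the SD of TCP1 to CCT7 was 0.679. CCT3 with CCT6A then had 0.277, TCP1 with CCT5 0.306, and CCT3 with CCT4 came next at 0.332, ahead of CCT4 with CCT7 at 0.342.

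**Figure D2:**
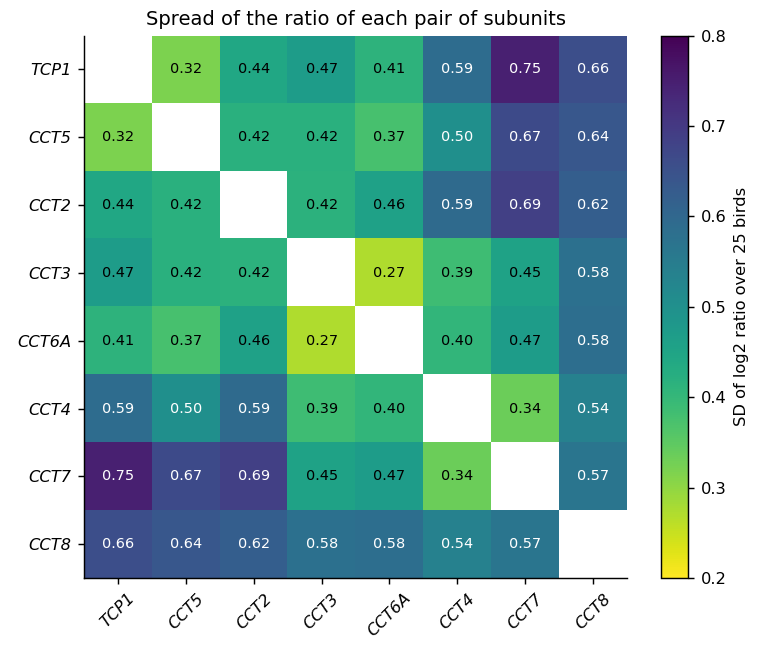
Standard deviation, over 25 birds, of the log2 ratio of each pair of TRiC subunits (rows and columns are genes, colour and number give the SD). CCT3 with CCT6A (0.272) and TCP1 with CCT5 (0.317) kept the steadiest ratios, and TCP1 with CCT7 (0.748) the least steady.

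Single libraries showed opposite shifts in this balance. In baseline 8448 CCT4, CCT7 and CCT8 had their highest share of the 33 libraries and CCT2 its lowest. In baseline 8450 CCT2 and CCT5 had their highest share. CCT8 was the member whose share differed most between groups, with a mean log2 ratio of −1.79 ± 0.356 after foreign song (SD, n = 12), −1.93 ± 0.321 after local song (SD, n = 11) and −1.49 ± 0.450 in baseline birds (SD, n = 10). The proliferation marker sum was highest of all in baseline 8450 (879.8 CPM) and its part in that bird's balance was not tested.

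**Figure D3:**
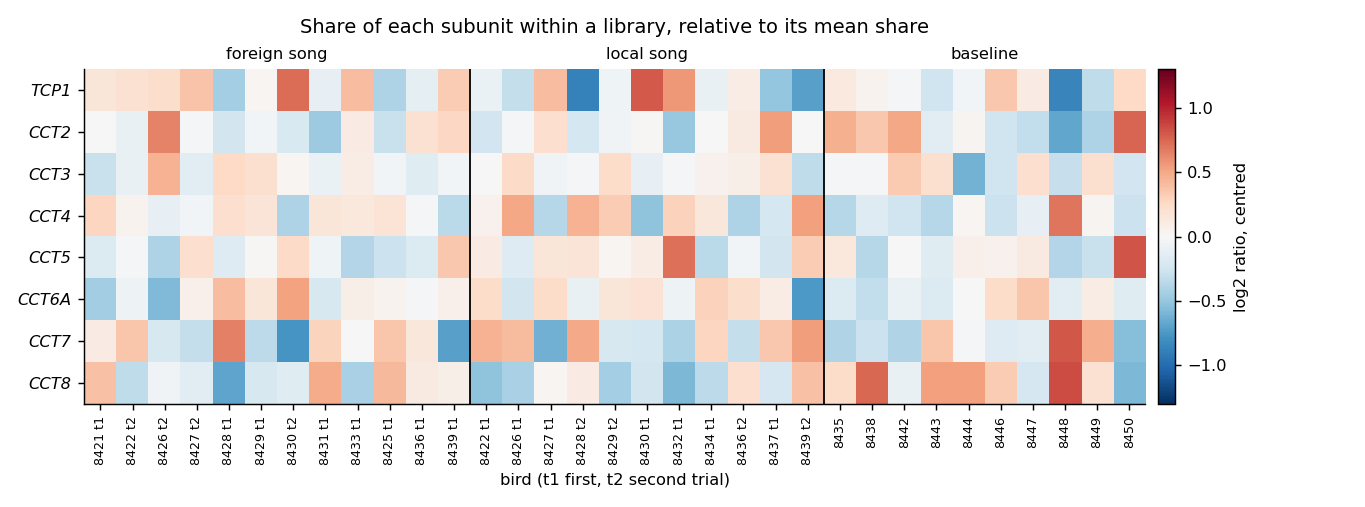
Log2 ratio of each TRiC subunit (rows) to the mean of the 8 in the same library (columns), centred on the subunit's mean over 33 libraries, for foreign-song, local-song and baseline libraries from left to right. Red marks a share above and blue a share below that mean; baseline 8448 and 8450 show opposite patterns for CCT2, CCT5, CCT4, CCT7 and CCT8.

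Whether song origin mattered was tested within the 8 birds sampled after both songs, with bird and trial in the model. No subunit differed between foreign and local song by edgeR's quasi-likelihood test with Benjamini-Hochberg adjustment over 11629 genes (0 of 8 called, against 0% of all genes). At an unadjusted p under 0.05, 4.18% of all genes and 0 of the 8 subunits passed, and DESeq2 called 4 genes, none a subunit. The largest difference was that of TCP1, with a log2 fold change of 0.30 ± 0.20 (SE; adjusted p = 0.775 by edgeR; higher after foreign song in 5 of 8 birds), and its 95% interval ran from −0.14 to 0.74. Without bird 8439 the TCP1 value was 0.08. CCT2, CCT3 and CCT6A had values of 0.14, 0.11 and 0.12, and CCT7 had −0.16. CCT4, CCT5 and CCT8 lay at −0.08, −0.02 and −0.01. The median of the 8 was 0.05, against −0.006 over all genes, and it turned to −0.073 without bird 8439 and −0.042 without bird 8430.

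No white cell marker passed the test in the same 16 libraries. All 9 tested genes of the monocyte list had values below 0 after foreign relative to local song (median log2 fold change −0.73, 7 with an unadjusted p under 0.05), where 50.9% of all genes were below 0 and 3.37% were so with such a p. The 7 heterophil genes were all below 0 (median −0.54, 3 with such a p), as were the 7 B cell genes (median −0.27, 2 with such a p), and of the 7 T cell genes 6 were (median −0.53, 2 with such a p). SPI1, the transcription factor of myeloid cells, had −0.70 ± 0.16 (SE; adjusted p = 0.775 by edgeR). The part of these markers in the subunits' values was not tested.

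Whether a second capture and playback differed from the first was read from the same model. All 8 subunits had a value below 0 in the second relative to the first trial, where 45.1% of all genes did, but none passed the test (0 of 8 called, against 0% of all genes). At an unadjusted p under 0.05, 1.94% of all genes were lower and 0 of the 8 subunits were, while DESeq2 called 6 genes, none a subunit. The median log2 fold change of the 8 was −0.23, against 0.04 over all genes. CCT6A was furthest from 0, at −0.41 ± 0.23 (SE; adjusted p = 0.633 by edgeR; 95% interval −0.90 to 0.079; higher in the second trial in 2 of 8 birds). CCT8 was nearest, at −0.04 ± 0.19 (SE; adjusted p = 0.937). The others lay between, with TCP1 at −0.29, CCT3 and CCT7 both at −0.24, CCT2 at −0.22, CCT5 at −0.18 and CCT4 at −0.13. No cell type marker passed the test in the same fit. Above 0 were 8 of 9 thrombocyte genes (median 0.39), 7 of 7 heterophil genes (median 0.28) and 8 of 9 monocyte genes (median 0.40). The T cell list had 3 of 7 above 0 (median −0.004) and the B cell list 3 of 7 (median −0.11). The erythroid list had 4 of 11 above 0 (median −0.01). The part of these markers in the subunits' values was not tested.

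The direction was that of most birds but not of all. Bird by bird, the mean log2 difference of the 8 subunits, second minus first, was −1.10 in 8439, −0.65 in 8426, −0.26 in 8428, −0.22 in 8429, −0.15 in 8422 and −0.09 in 8427. It was positive in 8436 (0.12) and in 8430 (0.24). The second trial held the lower scaled level of all 8 subunits in 8429 and of 7 in 8426 and 8439. It held the lower scaled level of 6 in 8422, 8427 and 8428, but of 2 in 8436 and 1 in 8430. In 8439 the TMM factor was 2.06 in the second library and 0.890 in the first. Before scaling, its counts of TCP1, CCT2, CCT3 and CCT6A were lower in the second library, and those of CCT4, CCT5, CCT7 and CCT8 were higher. The part of the scaling in that bird's decrease was not tested. With bird 8439 left out of the fit, the median of the 8 was −0.10, TCP1 had −0.08, CCT6A −0.23 and CCT7 −0.32, and CCT8 was on the other side of 0 at 0.04.

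CCT6A had the largest difference with all 8 birds, though without 8439 CCT7 was further from 0. Its second-trial levels were 4.44 CPM in 8439, 6.17 in 8426, 9.67 in 8428, 12.8 in 8422, 17.4 in 8429, 17.7 in 8427, 19.0 in 8436 and 27.9 in 8430. Its first-trial levels in the same order of birds were 16.8, 12.2, 16.4, 17.7, 20.3, 21.3, 14.8 and 18.8 CPM. The second-trial levels averaged 14.4 ± 7.69 CPM and the first-trial levels 17.3 ± 2.94 CPM (SD, n = 8 each). Second-trial birds were thus spread more widely on both sides, and the trials overlapped.

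TCP1 depended on 1 bird. Its second-trial level was 10.9 CPM in 8439, 13.3 in 8428, 25.5 in 8426, 35.6 in 8429, 36.6 in 8422, 41.1 in 8436, 51.8 in 8427 and 75.7 in 8430. In the first trial the same birds had 47.6, 21.5, 27.6, 43.7, 33.4, 32.7, 56.2 and 67.8 CPM. Without 8439, TCP1 averaged 39.9 ± 19.9 CPM in the second and 40.4 ± 16.5 CPM in the first trial (SD, n = 7 each).

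The pair of birds with the largest decreases differed in which subunits were lower. In 8439 the log2 difference, second minus first, was −2.13 for TCP1, −1.92 for CCT6A, −1.41 for CCT3 and −1.38 for CCT2, but −0.21 for CCT4 and 0.14 for CCT7. In 8426 it was −1.26 for CCT7, −1.25 for CCT4, −0.98 for CCT6A and −0.88 for CCT5, but −0.12 for TCP1 and 0.03 for CCT2. After scaling, CCT6A and CCT5 were among the lower ones in both, with CCT5 at −1.12 in 8439. CCT8 had −0.80 in 8439 and −0.27 in 8426, and CCT3 had −0.45 in 8426. The second library of 8426 followed foreign song and that of 8439 local song.

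**Figure D4:**
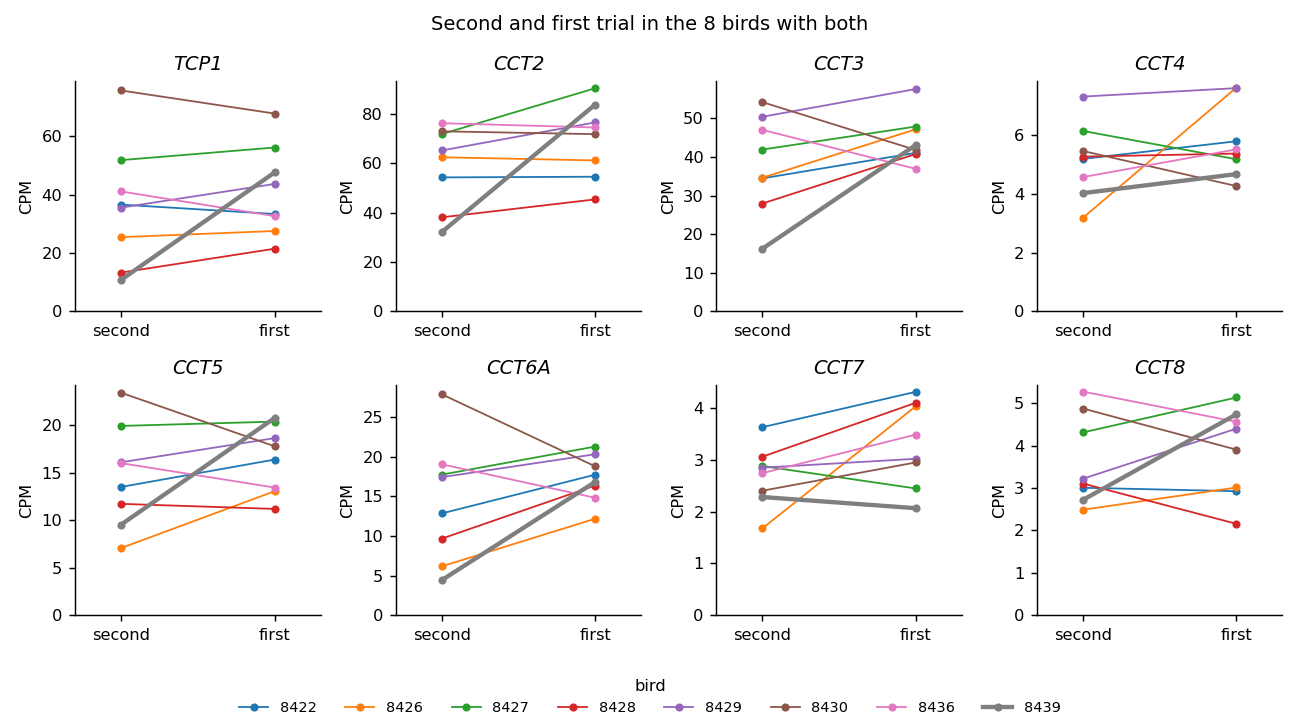
CPM of each TRiC subunit in the second (left) and first (right) trial of the 8 birds with both, 1 line per bird and a thick line for 8439. TCP1, CCT2, CCT3 and CCT6A are far lower in the second library of 8439, where the TMM factor was 2.06 against 0.890 in its first. The lines of 8430 and 8436 run the other way for most subunits.

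Song libraries were then set against the 10 baseline libraries, which the 3 comparisons below share. The first-trial libraries are also in the foreign-song or local-song comparison, and 8 birds are in both of those. The 3 comparisons are thus not independent of each other. No subunit passed the test in any of them (0 of 8 called in each). Over all genes, 0% were called for foreign song against baseline, 0.00847% for local song against baseline (ENTPD1 alone, higher) and 0.00834% for first trials against baseline (DBT alone, lower). CCT8 was the furthest of the 8 from 0 in each. Its log2 fold change was −0.45 ± 0.24 after foreign song (SE; p = 0.0726, adjusted p = 0.703 by edgeR). After local song it was −0.62 ± 0.24 (SE; p = 0.0166, adjusted p = 0.766 by edgeR; 95% interval −1.12 to −0.12). Over first trials of either song it was −0.52 ± 0.22 (SE; p = 0.0274, adjusted p = 0.815 by edgeR; 95% interval −0.98 to −0.062). At an unadjusted p under 0.05 and lower, 1 of the 8 subunits passed after local song, where 2.37% of all genes did, and 1 of 8 over first trials, where 3.99% did, while 0 of 8 passed after foreign song, where 4.56% did.

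CCT8 lay below the baseline median of 4.80 CPM in 10 of 12 foreign-song and 9 of 11 local-song libraries. CCT3 lay below its own baseline median in 10 of 12 and 6 of 11, CCT2 in 7 of 12 and 8 of 11. CCT4 did so in 1 of 12 and 4 of 11. Such a count was thus not particular to CCT8 after foreign song. Without baseline 8448 the log2 fold change of CCT8 was −0.26 (p = 0.242 by edgeR) after foreign song, −0.46 (p = 0.0552) after local song and −0.33 (p = 0.127) over first trials. Without baseline 8450, which had the lowest CCT8 level, it was −0.54 after foreign song (p = 0.0226 by edgeR). It was then −0.72 after local song (p = 0.00368) and −0.59 over first trials (p = 0.00815), with adjusted p of 0.394, 0.225 and 0.389. Leaving out 8450 also raised the number of all genes with an unadjusted p under 0.05. That number went from 842 to 1346 after foreign song, from 702 to 1447 after local song and from 720 to 1182 over first trials. Over all leave-one-out fits the adjusted p of CCT8 after local song ran from 0.225 to 0.998. Of the 7 T cell genes, none passed the test, and 6 had values below 0 after foreign song (median −0.94, CD28 above at 0.05), 5 after local song (median −0.82, CD28 above at 0.25 and BCL11B at 0.48) and 6 over first trials (median −0.94). Without baseline 8448 these medians were −0.27, −0.44 and −0.21, with 5, 4 and 5 genes below 0. Of all genes, 6810 of 11817, 5910 of 11800 and 6875 of 11992 were below 0 in the same comparisons with every library. The medians over all genes without baseline 8448 were −0.03, 0.01 and −0.02. CD8A, the co-receptor of cytotoxic T cells, had −2.72 ± 0.74 after local song (SE; adjusted p = 0.515 by edgeR) and −1.04 ± 0.49 without 8448 (SE; adjusted p = 0.935). The part of these genes in the CCT8 values was not tested.

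The other 7 subunits lay close to baseline. After foreign song they ran from −0.20 for CCT7 to 0.16 for TCP1, after local song from −0.13 for CCT7 to 0.09 for TCP1, and over first trials from −0.10 for CCT7 to 0.14 for TCP1. The median of the 8 was −0.06 after foreign song, 0.007 after local song and −0.01 over first trials, against −0.05, −0.0005 and −0.05 over all genes. Without baseline 8448, CCT4 had 0.23, 0.28 and 0.30 in the 3 comparisons and CCT7 had 0.04, 0.09 and 0.15. CCT7 thus changed sign in each, and CCT4 after foreign song. CCT3, at 0.007, 0.02 and 0.04, also changed sign, as did CCT5 over first trials, at 0.01.

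**Figure D5:**
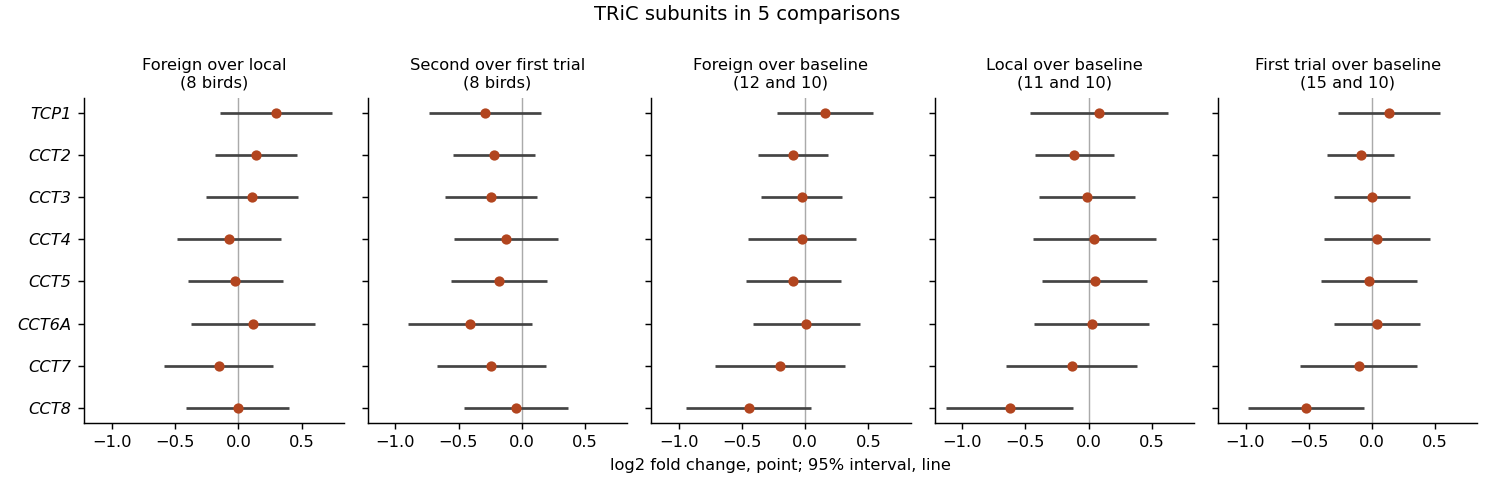
Log2 fold change (point) and 95% interval (line) of each TRiC subunit in 5 comparisons, with the numbers of birds or libraries above each panel. The 3 panels on the right share the baseline libraries, and the first-trial panel reuses song libraries of the others. Every interval crosses 0 except those of CCT8 after local song (−1.12 to −0.12) and over first trials (−0.98 to −0.062), neither of which passed after adjustment.

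Whether birds kept their order in a subunit from 1 trial to the other was tested over the 8 birds sampled after both songs, by exact permutation over all pairings of birds, two-sided, with Benjamini-Hochberg adjustment over 11629 genes. No subunit passed with all 8 birds, where 1.25% of all genes did, and 0 of 8 had a positive r with an unadjusted p under 0.05, where 20.9% of all genes did. TCP1 had the highest Pearson r, 0.557 (exact p = 0.155, adjusted p = 0.403; Spearman rho 0.548, exact permutation p = 0.171), followed by CCT6A at 0.536 and CCT8 at 0.451. CCT4 had the lowest, −0.062. The median of the 8 was 0.354, against 0.404 over all genes. Without the first-trial extremes of TCP1, birds 8428 and 8430, r was −0.019 in the birds left, which still included 8439.

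Bird 8439 stood apart because its libraries did not resemble each other, and TCP1 is among the genes that show it, so values without this bird are a description and no evidence that birds keep their order. Over the other 7 birds TCP1 had r = 0.923 (rho 0.857) and CCT2 r = 0.892 (rho 0.714). TCP1 was then the 1 subunit of 8 under the adjusted threshold, where 6.47% of all genes were, and 2 of the 8 subunits and 30.9% of all genes had a positive r with an unadjusted p under 0.05. Without its 2 farthest birds as well, r was 0.847 for TCP1 and 0.516 for CCT2. CCT6A, CCT5 and CCT8 had 0.694, 0.676 and 0.649, while CCT3 had 0.235, CCT7 0.0065 and CCT4 −0.21. Leaving out this bird raised the median over all genes too, to 0.603, beside 0.663 for the 8 subunits, so the rise was not particular to them.

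The genes most like the chaperonin were taken as the 10 with the highest Pearson r between their log2 CPM and the mean of the 8 subunits over 25 birds, among 8542 genes with a median r of 0.03. LSM5, part of the ring that binds U6 spliceosomal RNA, had the highest at 0.792. MTRES1, a mitochondrial RNA-binding factor, had 0.776, and IMPA1, an inositol monophosphatase, 0.773. Without the 2 birds farthest from the median, local 8437 and baseline 8448, these were 0.703, 0.712 and 0.713, and the other 7 named next ran from 0.543 for BABAM2 to 0.694 for KLHL5. KLHL5, a kelch family protein, had 0.742; P4HA2, a collagen prolyl hydroxylase subunit, 0.739; SLX9, a ribosome biogenesis factor, 0.731; and HIGD1A, a mitochondrial inner membrane protein, 0.722. BABAM2, of the BRCA1-A complex, had 0.712, CALM2, a calmodulin gene, 0.711, and SMC3, a cohesin subunit, 0.704. None of the 10 belonged to the lists of chaperonin partners. The birds share library preparation and scaling, and these values are a description with no test.

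Partners of the chaperonin were followed in lists of fixed membership, and no gene of them passed the adjusted test in any of the 5 comparisons. Prefoldin, which delivers chains to TRiC, had 5 of 6 genes with a row. All 5 were below 0 in the second relative to the first trial (median −0.32), with PFDN5 at −0.50 ± 0.29 and PFDN1 at −0.32 ± 0.25 (SE; adjusted p = 0.633 and 0.642 by edgeR). In correlation with the mean of the 8 subunits over 25 birds, prefoldin genes ran from −0.216 for PFDN2 to 0.347 for PFDN4.

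Among the phosducin-like cofactors (3 of 4 with a row), PDCL3 had −0.61 ± 0.21 after foreign song relative to baseline (SE; p = 0.00669, adjusted p = 0.687 by edgeR) and −0.57 ± 0.23 over first trials (SE; adjusted p = 0.815). Against local song in the 8 paired birds, PDCL3 had −0.42 ± 0.26 after foreign song (SE; adjusted p = 0.775 by edgeR). Its relatives PDCL and TXNDC9 lay at −0.02 and −0.01 after foreign song relative to baseline.

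The R2TP and prefoldin-like module, which assembles larger complexes, had 5 of 7 genes with a row. In the second relative to the first trial 4 of the 5 were below 0, with URI1 furthest at −0.44 ± 0.23 (SE; adjusted p = 0.633 by edgeR). RUVBL1, an ATPase of that module, and URI1 tracked the 8 subunits over birds with r = 0.574 and 0.514, while PDRG1 had −0.424. MKKS, a chaperonin-like protein needed for BBSome assembly, had the highest correlation of all partners, 0.622, and mitochondrial HSPD1 had 0.399.

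Tubulin folding cofactors, which take tubulin on after TRiC, had 5 of 6 genes with a row. All 5 were below 0 in the second relative to the first trial (median −0.21), with TBCC at −0.39 ± 0.22 (SE; adjusted p = 0.633 by edgeR). Of the substrates, 21 of 30 genes had a row. CDC20, an activator of the anaphase-promoting complex, had 0.77 ± 0.33 and TUBB4B, a beta tubulin, −0.34 ± 0.16 in the second relative to the first trial (SE; adjusted p = 0.633 by edgeR for each), and the median of the 20 tested was −0.05. PEX7, a peroxisomal import receptor with a beta-propeller, had −0.66 ± 0.20 after foreign song relative to baseline (SE; p = 0.00360, adjusted p = 0.687 by edgeR). Actin and tubulin genes come in near-identical copies, so their counts are uncertain.

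Regulators had 4 of 6 genes with a row, and HSF1, the main heat shock factor, was not analysed here. MYC, a transcription factor, had −0.71 ± 0.26 in the second relative to the first trial (SE; p = 0.0169, adjusted p = 0.633 by edgeR), beside a median of −0.23 for the 8 subunits. The correlation of MYC with the mean of the 8 over 25 birds was 0.459, and that of HSF2 was −0.051.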

How the data were processed

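Blood RNA was enriched for poly(A) tails and sequenced without removing globin transcripts, per the labels' protocols, and fastp and STAR are named in the submitters' processing notes. Neither their versions nor the build, counter or strand setting is given in the sources used here. Raw counts per gene, not normalized by the authors, were deposited for each library, with 21141 rows, of which 20961 carried a symbol of the RefSeq table (assembly bMelMel2.pri, used for names and neighbours). In it TCP1, CCT2 and CCT6A overlap other genes: LOC134416904, LOC134428014 and LOC134428015, all at 0 counts, and LRRC10, with at most 0.216 CPM.

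The main test was edgeR 4.0.16 (quasi-likelihood, robust; R 4.3.3) on the counts, with filterByExpr (minimum count 10, minimum total 15), TMM and Benjamini-Hochberg adjustment over all genes tested, threshold 0.05. SEs were derived from the F test. Paired fits held the 16 libraries of 8 birds, with bird, song and trial. Pairing comes from the individual's number in the labels: libraries of 1 bird deviated together (r 0.362 to 0.648) except in 8439 (−0.066). Baseline fits held only the groups compared. Single-library CPM was scaled over all 33 libraries, and log2 CPM used a prior count of 1. DESeq2 1.42.0 was the other tool. The edgeR fits of the comparisons and the permutation test of repeatability were tried on simulated data. The simulated counts held no bird effect, and the other steps were not simulated. The smallest p that permutation of 8 birds can give is 2.48e-05. No 2 libraries agreed within counting noise (lowest chi-square per gene 170.6 over 528 pairs). A library is 1 blood sample, and 2 libraries (foreign 8425 and baseline 8446) came from 2 lanes, not 3. All 33 carry a single batch label. At 64.7 to 103.7 M counts, the lowest member count was 118, so counting error is small; PCR reads are not independent molecules.

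The members and lists were chosen with earlier results of these data known. The genes named are the 8 members, the genes of smallest p in each list with their values, and the 10 most like the members, with other partners and marker genes picked for description after their values were seen. Cell type lists were read as sums over genes with a row: thrombocytes summed to 504.7 to 1003 CPM, heterophils to 12.3 to 79.5 CPM and proliferation genes to 177.0 to 879.8 CPM.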

Additional observations from a re-analysis of the deposited data

Results flagged for a closer look

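In 24 sets of values (each subunit in the baseline birds and in both within-bird differences), 10 held 1 value far from the others by Dixon's criterion. Chance flags about 1 in 20 independent sets. These sets are not independent, since both within-bird differences of a subunit use the same libraries and each library recurs across subunits. The 10 cannot be set against that rate. TCP1 was far above the other baseline birds in 8446, at 59.3 CPM, a library made from 2 lanes. CCT4 was far above them in 8448, at 12.8 CPM, the bird with the highest T cell sum (100.9 CPM).

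Among within-bird differences, 8439 stood apart for TCP1, at −2.13 on the log2 scale for second minus first and 2.13 for foreign minus local, which are the same pair of libraries. It also stood apart for CCT2, at −1.38 and 1.38. Bird 8426 stood apart for CCT4, at −1.25, and for CCT7, at −1.26, in both contrasts, since its second trial was the foreign one.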

How the results depend on the processing

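No subunit was called in any of the 5 comparisons under any alternative tried, other tools, scalings and left-out libraries included. Counts over all genes moved with the tool: DESeq2 called 4 genes for foreign against local song, 6 for second against first trials, 1 for foreign song, 18 for local song and 5 for first trials against baseline. The 1 gene for local song against baseline became 0 with DESeq2 size factors, with no filter and without the libraries of 2 lanes, and ran from 0 to 2 when single libraries were left out; the 1 for first trials became 0 with no filter and ran from 0 to 1.

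Some values changed sign, and not all of them were near 0. For foreign against local song, CCT5 was 0.0049 with DESeq2 size factors, 0.016 with no filter and 0.0048 in DESeq2, and CCT8 was 0.024, 0.035 and 0.024. Without pairing by bird (no replicate block, 23 song libraries) no gene was called, CCT8 was 0.20 and the median of the 8 for second against first trials was −0.083. In first trials only, TCP1 was −0.30, CCT2 −0.083, CCT3 −0.092, CCT4 1.34e-05, CCT6A −0.15 and CCT8 0.32. TCP1 had 0.30 and CCT6A 0.12 in the main fit, so these were reversals of size and not values near 0. The median of the 8 was −0.088 in first trials only, against 0.05 in the main fit. For local song against baseline CCT6A was −0.0045 with no filter and CCT3 0.012 without the libraries of 2 lanes. For first trials against baseline CCT3 was 0.012 with DESeq2 size factors and in DESeq2 and 0.014 without the libraries of 2 lanes, and CCT5 was then 0.052. The cause was not tested. Leaving out the 10 most abundant genes from the totals gave a mean subunit sum of 285.2 CPM over all libraries, against 181.8, with 274.6 after foreign song, 283.5 after local song and 299.8 in baseline birds. Without 8439, a bird singled out for the poor match of its libraries, 1 subunit (TCP1) passed the repeatability threshold.

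Leaving out 1 bird or library at a time gave these ranges for the subunits whose value changed sign. Subunits not listed for a comparison kept their sign. For second against first trials these included CCT6A, from −0.56 to −0.23, and TCP1, from −0.45 to −0.084. CCT8 stayed below 0 in every comparison with baseline. For foreign against local song the log2 fold change ran as follows, CCT3 −0.035 to 0.23, CCT4 −0.17 to 0.089, CCT5 −0.15 to 0.083, CCT6A −0.073 to 0.27, CCT8 −0.10 to 0.12. For second against first trials the log2 fold change ran as follows, CCT4 −0.22 to 0.040, CCT8 −0.17 to 0.042. For foreign song against baseline the log2 fold change ran as follows, CCT3 −0.11 to 0.041, CCT4 −0.082 to 0.23, CCT6A −0.092 to 0.11, CCT7 −0.28 to 0.044. For local song against baseline the log2 fold change ran as follows, TCP1 −0.044 to 0.22, CCT3 −0.087 to 0.059, CCT4 −0.031 to 0.28, CCT5 −0.10 to 0.12, CCT6A −0.038 to 0.12, CCT7 −0.22 to 0.094. For first trials against baseline the log2 fold change ran as follows, CCT3 −0.081 to 0.086, CCT4 −0.0087 to 0.30, CCT5 −0.13 to 0.066, CCT7 −0.16 to 0.15.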

Other observations

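In structures of TRiC from yeast and mammals the ring order is TCP1, CCT4, CCT2, CCT5, CCT7, CCT8, CCT6A and CCT3. Transcripts of the 8 neighbouring pairs did not keep steadier ratios than those of the 20 other pairs in these birds: the median SD of the log2 ratio over 25 birds was 0.575 for neighbours (0.272 to 0.666) and 0.454 for other pairs (0.317 to 0.748). Pairs share genes, so this is a description with no test. The tightest pair, CCT3 and CCT6A, is a pair of neighbours, and the next ones, TCP1 with CCT5 and CCT4 with CCT7, are not.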
